A study of Homo sapiens with 4 samples.

Results

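This report describes the zinc-finger genes named ZNF that lie on the autosomes other than chromosome 19 and that had a listed ZHX2 binding peak: 113 genes with 129 peaks. They were chosen by rule from the authors' deposited table of 8871 peaks, as protein-coding genes on chromosomes 1 to 22 without 19 whose symbol is ZNF followed by a number. Each gene is represented by its peak nearest to a transcription start. The values that chose the genes were therefore the listing of a peak and its annotation, so the presence of a peak at these genes is no finding.

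The study used DB, a human cell line from a diffuse large B-cell lymphoma that GEO labels B-lymphoma, to compare ZHX2 binding between cells labelled ZHX2 Mut4 and cells labelled ZHX2. Mut4 is an altered form of ZHX2, and the labels give neither its changed residues nor a promoter, vector or clone for either form, nor whether the cells kept their own ZHX2, which anti-ZHX2 would also bind. For each form there was 1 chromatin immunoprecipitation library, made with anti-ZHX2 from formaldehyde-fixed, sonicated chromatin, and 1 input library, not used here. With 1 library per arm there is no replicate error, and no difference below was tested between the conditions.

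ZNF genes encode C2H2 zinc-finger proteins, in which repeated fingers each hold a zinc ion and contact a few bases of DNA. Many carry a KRAB box, which recruits TRIM28 and SETDB1 to lay down repressive chromatin, often over transposable elements, and others carry a SCAN box, which pairs proteins, or neither. Their genes lie in clusters that arose by duplication, the largest set of which is on chromosome 19. ZHX2 is a zinc-finger and homeobox factor, studied mainly as a repressor of fetal genes in liver, and it interacts with the CCAAT-binding factor NFY.

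The peaks were quantified as whole reads recovered from the deposited values, 271694 reads in Mut4 and 541900 in ZHX2 over all listed peaks. A fold is the number of reads in Mut4 over that in ZHX2, times 2.14 for the authors' scaled library sizes, with an exact 95% interval (Clopper-Pearson, from the Mut4 share of the reads). Intervals cover counting error only, since no molecular tags are described and reads may be copies of 1 molecule. Every direction below holds under the authors' scaling. Without scaling, each log2 ratio of Mut4 over ZHX2 falls by 1.10, and Mut4 then had fewer reads than ZHX2 at all 113 ZNF genes. This is near the background, since Mut4 had more unscaled reads at 360 of all 8871 listed peaks. A loss of binding shared by most peaks and a shallower library cannot be told apart in these values. The B-cell label could be looked at only through listed peaks, which were present at 5 of 6 marker genes (CD79A, CD79B, MS4A1, CD37 and PAX5); binding does not measure expression.

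The promoters that carry the comparison are shown as the 3 genes with the largest and the 3 with the smallest fold among well-covered promoter peaks, so that their letters can be set beside their reads. The sequences are RefSeq windows of GRCh38.p14, 250 bases before to 50 after the gene's start, 5′ to 3′ on the gene's strand. Capitals mark CCAAT, the box bound by NFY, and CCGGAAG, a sequence bound by ETS factors, on either strand. The windows of ZNF174 (chr16:3400965-3401264, plus strand), ZNF407 (chr18:74597620-74597919, plus strand) and ZNF24 (chr18:35344371-35344670, minus strand) belong to genes higher in Mut4. Those of ZNF518A (chr10:96129465-96129764, plus strand), ZNF143 (chr11:9460762-9461061, plus strand) and ZNF184 (chr6:27473056-27473355, minus strand) belong to genes lower in Mut4. Each window overlaps the gene's peak.
ZNF174: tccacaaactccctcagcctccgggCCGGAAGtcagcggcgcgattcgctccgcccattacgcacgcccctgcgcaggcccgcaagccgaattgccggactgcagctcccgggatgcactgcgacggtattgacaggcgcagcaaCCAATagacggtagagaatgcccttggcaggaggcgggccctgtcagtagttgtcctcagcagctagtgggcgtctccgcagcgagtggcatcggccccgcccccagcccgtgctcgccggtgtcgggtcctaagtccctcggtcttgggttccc
ZNF407: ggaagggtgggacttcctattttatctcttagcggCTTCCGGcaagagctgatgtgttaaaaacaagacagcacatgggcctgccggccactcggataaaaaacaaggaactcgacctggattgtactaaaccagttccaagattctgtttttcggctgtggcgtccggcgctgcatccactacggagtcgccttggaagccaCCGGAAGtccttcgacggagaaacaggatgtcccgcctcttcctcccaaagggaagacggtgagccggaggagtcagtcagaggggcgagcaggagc
ZNF24: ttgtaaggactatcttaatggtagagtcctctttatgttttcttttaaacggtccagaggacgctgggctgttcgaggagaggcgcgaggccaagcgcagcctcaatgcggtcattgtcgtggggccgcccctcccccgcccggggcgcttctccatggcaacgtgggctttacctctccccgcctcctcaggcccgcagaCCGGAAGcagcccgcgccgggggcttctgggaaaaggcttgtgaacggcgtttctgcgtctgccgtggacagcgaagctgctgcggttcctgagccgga
ZNF518A: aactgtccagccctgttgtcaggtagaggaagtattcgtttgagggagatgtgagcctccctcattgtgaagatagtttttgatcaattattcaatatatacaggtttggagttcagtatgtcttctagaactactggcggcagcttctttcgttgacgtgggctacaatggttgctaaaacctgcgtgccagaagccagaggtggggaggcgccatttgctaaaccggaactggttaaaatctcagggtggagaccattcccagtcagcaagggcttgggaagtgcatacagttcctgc
ZNF143: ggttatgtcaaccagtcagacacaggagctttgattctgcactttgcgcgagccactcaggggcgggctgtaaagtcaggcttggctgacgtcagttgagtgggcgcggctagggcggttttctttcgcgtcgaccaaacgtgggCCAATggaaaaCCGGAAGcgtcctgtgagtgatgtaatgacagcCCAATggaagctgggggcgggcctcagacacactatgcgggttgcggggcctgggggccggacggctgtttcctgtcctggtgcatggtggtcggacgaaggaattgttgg
ZNF184: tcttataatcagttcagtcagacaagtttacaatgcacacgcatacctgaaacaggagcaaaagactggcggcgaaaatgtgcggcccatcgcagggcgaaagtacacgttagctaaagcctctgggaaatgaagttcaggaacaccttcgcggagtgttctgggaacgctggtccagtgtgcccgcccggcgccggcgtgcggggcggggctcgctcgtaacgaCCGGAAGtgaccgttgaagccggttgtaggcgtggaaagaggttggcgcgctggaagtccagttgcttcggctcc

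Under the authors' scaling the ZNF genes off chromosome 19 lay slightly to the Mut4 side. Of the 113 genes, 68 (60.2%) were higher in Mut4, against 49.6% of all listed peaks, and 45 (39.8%) were lower in Mut4, against 50.4% of all listed peaks. Their median fold was 1.07, with quartiles of 0.793 and 1.28. At the representative peaks large differences were few and on 1 side. No ZNF gene was past 2-fold higher in Mut4, against 5.31% of all peaks. Past 2-fold lower were 7 (6.19%), against 8.44% of all peaks. These shares are not alike in how the peaks were listed. All peaks include 210 marked as unique to Mut4, all of them higher in Mut4, and 0 of the representative peaks were so marked. The side of the large differences therefore cannot be read apart from the listing. Further peaks of ZNF282 and ZNF343, given with the genes of several peaks, were past 2-fold higher in Mut4. The fold thresholds were applied to the log2 fold of the authors' deposited table, which runs ZHX2 over Mut4.

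Counting error alone covered most of these differences. The interval lay above 1 at 11 genes (9.73%), against 11.0% of all peaks, and below 1 at 10 genes (8.85%), against 11.0% of all peaks. Both shares are near the background, and the interval included 1 at the other 92 genes. In the authors' deposited table, whose adjusted p compares these 2 libraries and not the conditions, 0 of the ZNF genes fell under 0.05 at the representative peak and were higher in Mut4, against 3.43% of all peaks, and 2 fell under it and were lower, against 2.53% of all peaks.

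**Figure D1:**
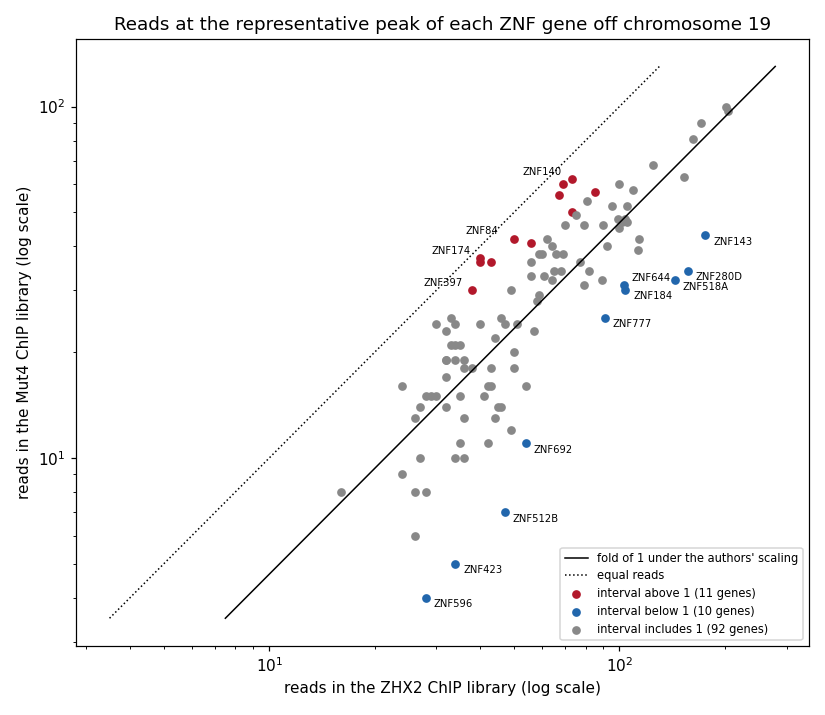
Reads at the representative peak of each of the 113 ZNF genes, Mut4 on the vertical and ZHX2 on the horizontal axis, both on log scales. Each dot is a gene, coloured by whether the exact 95% counting interval of its fold lies above 1 (11 genes), below 1 (10 genes) or includes 1 (92 genes); all dots lie under the dotted line of equal reads, and the cloud follows the solid line of a fold of 1 under the authors' scaling.

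The read numbers set how firmly each gene can be read. At the representative peaks Mut4 had 4 to 100 reads, with a median of 29, and ZHX2 had 16 to 204 reads, with a median of 51. Summed over the 113 genes, Mut4 had 3526 reads and ZHX2 had 7289, a scaled ratio of 1.04. The smallest folds belonged to thinly covered peaks, so their intervals are wide.

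Among the genes higher in Mut4, the largest fold was at ZNF174, which encodes a SCAN-box zinc-finger protein. Its promoter peak at chr16:3400777-3401835 held 37 reads in Mut4 and 40 in ZHX2, a 1.98-fold excess in Mut4 after scaling (1.23 to 3.18). ZNF407 had 36 reads in Mut4 and 40 in ZHX2, 1.93-fold (1.19 to 3.10). The raw counts of these genes were nearly equal, and without scaling both had slightly fewer reads in Mut4. Their excess is relative to the other listed peaks, since all listed peaks had a median fold of 0.997 under the same scaling. Centred on the median of all peaks, the log2 ratio was 0.99 at ZNF174 and 0.95 at ZNF407. ZNF24, a SCAN-box factor whose peak at chr18:35343961-35345768 lay 408 bp before the start, had 60 reads in Mut4 and 69 in ZHX2, 1.86-fold (1.30 to 2.67).

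The next folds were close in size. ZNF140 had 62 reads in Mut4 and 73 in ZHX2, 1.82-fold (1.28 to 2.59), and its neighbour ZNF84 had 42 in Mut4 and 50 in ZHX2, 1.799-fold (1.16 to 2.77). ZNF33A had 36 reads in Mut4 and 43 in ZHX2, 1.79-fold (1.12 to 2.86), a value that is uncertain because the gene has a near copy, ZNF33B, with which reads could be shared. ZNF789 had 56 reads in Mut4 and 67 in ZHX2, 1.79-fold (1.23 to 2.59). The fold then declined through ZNF397 (30 reads in Mut4 and 38 in ZHX2, 1.69), ZNF736 (41 in Mut4 and 56 in ZHX2, 1.57) and ZNF830 (50 in Mut4 and 73 in ZHX2, 1.47), whose lower bounds were all close to 1. ZNF830 is a splicing-associated protein. ZNF408, singled out after its values were seen, completed the 11 genes with 57 reads in Mut4 and 85 in ZHX2, 1.44-fold (1.01 to 2.03). In the authors' deposited table the smallest adjusted p among ZNF24, ZNF140, ZNF174 and ZNF407 was 0.0920, at ZNF24.

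On the other side, ZNF280D and ZNF518A were lower in Mut4 by about the same amount. ZNF280D, with a peak at chr15:56732524-56734125 in an intron 170 bp from the start, had 34 reads in Mut4 and 157 in ZHX2, 2.16-fold lower in Mut4 (1.48 to 3.22). ZNF518A had 32 reads in Mut4 and 144 in ZHX2, 2.10-fold lower (1.42 to 3.19). These were the 2 ZNF genes whose representative peak passed 0.05 by the adjusted p given in the authors' deposited table, with 0.0214 for ZNF280D and 0.0360 for ZNF518A. Both were among the deepest of the genes lower in Mut4, so their intervals were narrow. Their peaks, like those of the other genes with an interval below 1, were marked as unique to ZHX2. They were thus listed through the library in which they are higher, and their folds, intervals and adjusted p carry that selection. The mark did not set the side, since 111 of the 113 representative peaks bore it, those of ZNF174 and ZNF407 included.

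ZNF143 came next. It encodes an activator that binds the promoters of small nuclear RNA genes and of many coding genes. Its promoter peak held 43 reads in Mut4 and 176 in ZHX2, 1.91-fold lower in Mut4 (1.36 to 2.73), and the authors' deposited table lists 0.0583 as its adjusted p. The shown window of ZNF143 held 2 CCAAT boxes and 1 ETS match, that of ZNF518A none of the motifs searched. ZNF777, a KRAB gene, had 25 reads in Mut4 and 91 in ZHX2, 1.70-fold lower (1.08 to 2.76). ZNF184 had 30 reads in Mut4 and 104 in ZHX2, 1.62-fold lower (1.07 to 2.52), and ZNF644 had 31 in Mut4 and 103 in ZHX2, 1.55-fold lower (1.03 to 2.40). The last of these encodes a partner of the histone methyltransferase G9a. The interval included 1 for ZNF764 (39 reads in Mut4 and 113 in ZHX2), ZNF713 (32 in Mut4 and 89 in ZHX2), ZNF217 (42 in Mut4 and 114 in ZHX2) and ZNF821 (31 in Mut4 and 79 in ZHX2), which were 1.35-, 1.30-, 1.27- and 1.19-fold lower in Mut4.

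The numerically largest decreases had few reads in Mut4. ZNF596, ZNF512B and ZNF692 lay outside the rule for named genes and were singled out after their values were seen. ZNF596 had 4 reads in Mut4 and 28 in ZHX2, 3.27-fold lower in Mut4 (1.14 to 12.8). ZNF423, a partner of EBF and SMAD factors, had 5 reads in Mut4 and 34 in ZHX2, 3.18-fold lower (1.24 to 10.4). ZNF512B had 7 reads in Mut4 and 47 in ZHX2, 3.14-fold lower (1.41 to 8.22). Each of these intervals spans from a small to a very large difference. ZNF692, whose peak lay 6555 bp from the start at the end of the transcript, had 11 reads in Mut4 and 54 in ZHX2, 2.29-fold lower (1.19 to 4.86). ZNF451 reached 2.02-fold lower with 6 reads in Mut4 and 26 in ZHX2, but its interval of 0.815 to 6.01 included 1.

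**Figure D2:**
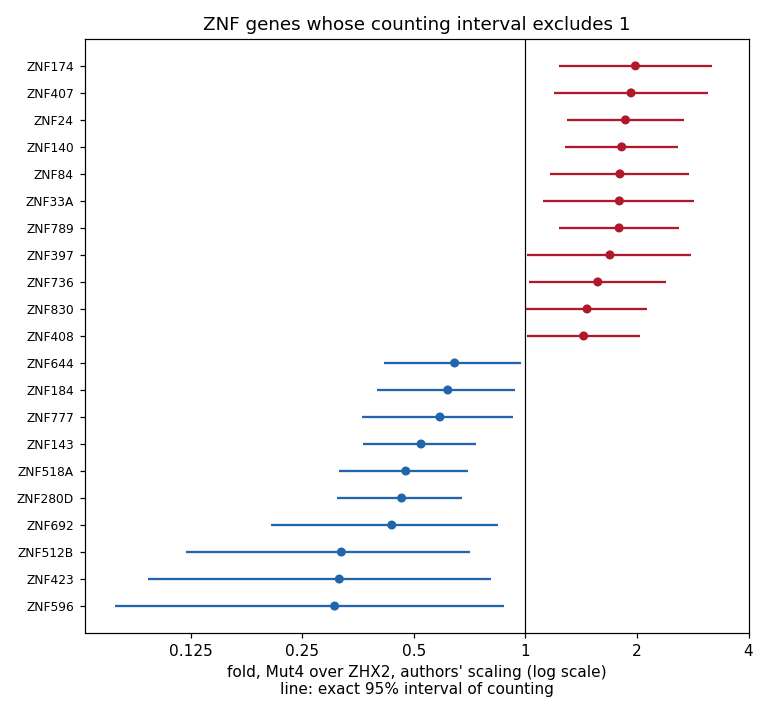
Fold of Mut4 over ZHX2 under the authors' scaling, on a log scale, for the 21 ZNF genes whose counting interval excludes 1, with the exact 95% interval as a line. The 11 genes above 1 sit between 1.44 and 1.98 with similar intervals, while the 10 genes below 1 reach 0.306 at ZNF596, where the interval is widest.

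At the strongest peaks the interval included 1, except at ZNF143. The 6 ZNF genes of highest mean signal were ZNF398, ZNF341, ZNF335, ZNF786, ZNF827 and ZNF143. ZNF398 had 100 reads in Mut4 and 202 in ZHX2, a fold of 1.06 (0.826 to 1.35). ZNF341, an activator of STAT3 whose loss in people causes a hyper-IgE syndrome, had 97 reads in Mut4 and 204 in ZHX2, a fold of 1.02 (0.791 to 1.30). ZNF786 had 81 reads in Mut4 and 162 in ZHX2, a fold of 1.07 (0.810 to 1.41). At these peaks an excess or loss in Mut4 of more than about 1.41-fold lies outside the counting intervals. ZNF827, known for recruiting NuRD to telomeres, had 63 reads in Mut4 and 153 in ZHX2, a fold of 0.882 (0.647 to 1.19).

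Genes with known roles are given by role, beside a median log2 ratio of all listed peaks of -0.0046. Of 8 promoter activators listed, 4 had a peak, 3 of them higher and 1 lower in Mut4, with a median log2 ratio of 0.16. ZNF76, the paralogue of ZNF143, had 34 reads in Mut4 and 68 in ZHX2, a fold of 1.07 (0.688 to 1.64), next to the 1.91-fold decrease at ZNF143. ZNF410, an activator of the CHD4 gene, had 33 reads in Mut4 and 61 in ZHX2, a fold of 1.16 (0.735 to 1.798). The 4 genes thus held 1 interval above 1, at ZNF24, and 1 below 1, at ZNF143, against 11.0% of all listed peaks each way.

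Of 13 corepressor and chromatin partners, 10 had a peak, 5 higher and 5 lower in Mut4, with a median log2 ratio of -0.09. The interval excluded 1 only at ZNF423 and ZNF644, both below 1, which is 2 of 10 against 11.0% of all listed peaks. The partners of the chromatin reader ZMYND8 were mixed. ZNF592 had 68 reads in Mut4 and 125 in ZHX2, a fold of 1.16 (0.854 to 1.58). ZNF687 had 52 reads in Mut4 and 95 in ZHX2, a fold of 1.17 (0.819 to 1.66), and ZNF532 had 11 in Mut4 and 42 in ZHX2, a fold of 0.561 (0.260 to 1.11). All intervals of these 3 genes included 1. ZNF335, a component of histone H3K4 methyltransferase complexes, had 90 reads in Mut4 and 171 in ZHX2, a fold of 1.13 (0.863 to 1.46). ZNF638, which recruits the HUSH silencing complex to unintegrated retroviral DNA, had 34 reads in Mut4 and 65 in ZHX2, a fold of 1.12 (0.717 to 1.72). ZNF746, a substrate of the ubiquitin ligase Parkin, had 13 reads in Mut4 and 44 in ZHX2, a fold of 0.633 (0.313 to 1.20). ZNF219 had 24 reads in Mut4 and 34 in ZHX2, a fold of 1.51 (0.858 to 2.62). The oncogene ZNF217 was given above.

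Several genes that carry the name ZNF work on RNA, ribosomes or ubiquitin-like proteins, not as DNA-binding factors of the KRAB kind. Of 11 such genes 7 had a peak, 5 higher and 2 lower in Mut4, against 49.6% of all listed peaks higher. Their median log2 ratio was 0.10. No interval excluded 1, against 11.0% of all listed peaks each way, so with 7 genes this is near the background. ZNF622, a factor of large ribosomal subunit maturation, had 25 reads in Mut4 and 33 in ZHX2, a fold of 1.62 (0.925 to 2.81). ZNF207, a spindle assembly protein, had 54 reads in Mut4 and 81 in ZHX2, a fold of 1.43 (0.992 to 2.04). ZNF598, the ubiquitin ligase of collided ribosomes, had 18 reads in Mut4 and 36 in ZHX2, a fold of 1.07 (0.572 to 1.94). ZNF326, of the DBIRD complex that links transcription to splicing, was at a fold of 1.01 (0.593 to 1.67). ZNF706 was at 1.26 (0.795 to 1.97). ZNF593, also of large subunit maturation, had 14 reads in Mut4 and 46 in ZHX2, a fold of 0.652 (0.331 to 1.21), so the 2 ribosomal subunit genes pointed opposite ways within intervals that include 1.

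Set beside other genes, the ZNF genes off chromosome 19 lay between the ZNF genes on chromosome 19 and the remaining coding genes in the share higher in Mut4 and in the median. Higher in Mut4 were 68 of 113 (60.2%) off chromosome 19, 56 of 81 (69.1%) on chromosome 19 and 2340 of 5096 (45.9%) of the other coding genes off chromosome 19. The median log2 ratio was 0.10 off chromosome 19, against 0.19 for ZNF genes on it and -0.06 for the other coding genes. Past 2-fold higher in Mut4 were 0 of the ZNF genes off chromosome 19, 5 (6.17%) of those on it and 142 (2.79%) of the other coding genes. Here the ZNF genes off chromosome 19 did not lie between the other sets. Representative peaks marked as unique to Mut4 numbered 0 of 113, 3 of 81 and 40 of 5096 in these sets. Intervals above 1 numbered 11 (9.73%) off chromosome 19, 18 (22.2%) on it and 435 (8.54%) among the other coding genes. Intervals below 1 numbered 10 (8.85%), 7 (8.64%) and 601 (11.8%) in the same order. Past 2-fold lower in Mut4 were 7 (6.19%), 4 (4.94%) and 440 (8.63%). With 1 library per arm, none of these differences was tested. The quartiles of the 3 sets overlap broadly.

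**Figure D3:**
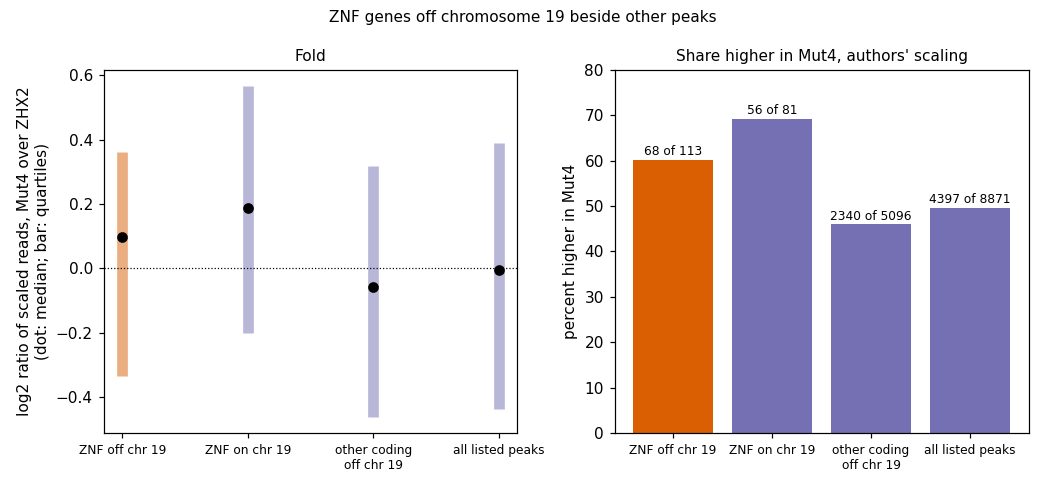
Left, median (dot) and quartiles (bar) of the log2 ratio of scaled reads, Mut4 over ZHX2, for ZNF genes off chromosome 19, ZNF genes on it, other coding genes off it and all listed peaks. Right, the percent of each set higher in Mut4 under the authors' scaling, 60.2% for the ZNF genes off chromosome 19. Without scaling none of their 113 genes was higher in Mut4, against 360 of all 8871 listed peaks.

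The share higher in Mut4 was larger among well-covered peaks. Among the 64 ZNF genes at or above the median signal of all peaks, 86.4 CPM (reads scaled to library size), 45 (70.3%) were higher in Mut4, with a median log2 ratio of 0.15. The ZNF genes on chromosome 19 above that signal had 71.2% higher in Mut4 and a median of 0.18. The other coding genes above it had 51.4% higher in Mut4 and a median of 0.01. Among the 49 ZNF genes below it, 23 (46.9%) were higher in Mut4, with a median of -0.12, against 39.2% and -0.16 for the other coding genes. Across the 113 genes the log2 ratio and the mean signal had a Spearman rho of 0.20, and among the 5096 other coding genes of 0.15; both quantities come from the same reads, so this is a description only.

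By annotation class, promoter peaks and intron peaks differed in side. Promoter peaks of ZNF genes were higher in Mut4 at 54 of 82 (65.9%), against 73.1% of promoter peaks of ZNF genes on chromosome 19 and 47.9% of those of the other coding genes. Intron peaks, at 23 genes, were higher in Mut4 at 10 (43.5%), with a median log2 ratio of -0.21, against 47.0% and -0.05 for intron peaks of the other coding genes. All 11 ZNF genes with an interval above 1 had promoter peaks, and 5 of the 10 with an interval below 1 did. In position the ZNF peaks resembled those of other coding genes, with 93.8% within 1000 bp of a start, against 91.3%. They had a median length of 961 bp, and peaks of the other coding genes had 1001 bp. The authors marked 2 of the 113 representative peaks, at ZNF335 and ZNF362, as common to both arms in their deposited table. The other 111 were marked as unique to ZHX2. This is near the background, since 185 of all 8871 listed peaks were marked as common and 8476 as unique to ZHX2. Among the 5096 other coding genes, 108 representative peaks were marked as common and 4948 as unique to ZHX2. ZNF362 had 46 reads in Mut4 and 79 in ZHX2, a fold of 1.25 (0.847 to 1.82).

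Neighbouring ZNF genes did not share 1 direction. Clusters were taken as runs of peaks within 500 kb with at least 4 ZNF genes, which gave 3 clusters with 22 genes, 13 higher and 9 lower in Mut4, against 55 higher and 36 lower among the 91 genes outside. On chromosome 12 (chr12:132955041-133182024, the end of the long arm) 4 of 5 genes were higher in Mut4, with a median log2 ratio of 0.44. ZNF84 and ZNF140 were the pair with intervals above 1, while ZNF605 was at 1.16 (0.685 to 1.93), ZNF268 at 1.36 (0.879 to 2.07) and ZNF891 at 0.959 (0.665 to 1.36). Summed over the cluster, Mut4 had 214 reads and ZHX2 had 334.

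The chromosome 7 cluster (chr7:149089411-149765875) held 8 genes, 4 higher and 4 lower in Mut4. In chromosome order the folds were 1.07 at ZNF786, 1.06 at ZNF398, 0.864 at ZNF282, 0.634 at ZNF212, 1.04 at ZNF783, 0.588 at ZNF777, 0.633 at ZNF746 and 1.43 at ZNF467. Its genes summed to 322 reads in Mut4 and 733 in ZHX2, and ZNF777 alone had an interval apart from 1. The chromosome 16 cluster (chr16:30524415-31874507) held 9 genes, 5 higher and 4 lower in Mut4, from 0.524 at ZNF720 (0.254 to 1.00) to 1.40 at ZNF785 (0.956 to 2.03). There 13 other coding genes had a peak as well, 7 higher and 6 lower in Mut4.

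**Figure D4:**
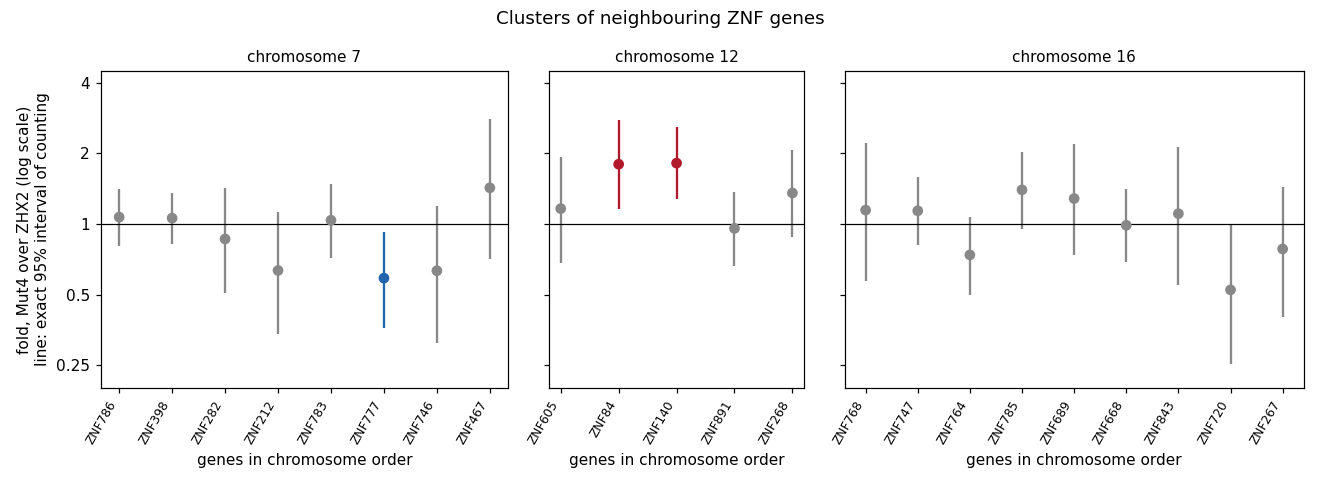
Fold of Mut4 over ZHX2 with the exact 95% counting interval, on a log scale, for the ZNF genes of the clusters on chromosomes 7, 12 and 16 in chromosome order. Only ZNF84 and ZNF140 lie above 1 and ZNF777 below 1 with their whole interval; the genes around them include 1.

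By chromosome the ZNF genes were most numerous on chromosome 16, with 10 of 19 higher in Mut4, and on chromosome 7, with 11 of 18. Of the other coding genes on chromosome 16, 48.5% were higher in Mut4. On chromosome 7 the other coding genes also lay to the Mut4 side, at 57.8%. Without chromosome 7, 57 of the remaining ZNF genes were higher and 38 lower in Mut4. The other chromosomes held 9 ZNF genes or fewer. The shares below are set against those of the other coding genes on the same chromosome. On chromosome 10, 5 of 6 were higher in Mut4 (against 41.0%), on chromosome 12, 4 of 5 (45.0%), and on chromosome 17, 4 of 5 (52.9%). On chromosome 6, 2 of 5 were higher (38.9%), on chromosome 1, 4 of 9 (43.1%), and on chromosome 8, 5 of 8 (43.9%). On chromosome 18, 3 of 6 were higher (48.4%) and on chromosome 20, 4 of 7 (54.2%).

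Within a gene, peaks could point opposite ways. Of the 113 genes 100 had 1 peak and 13 had more, and 8 of the 13 had peaks of both directions. The same share was not counted for other genes with several peaks. All listed peaks were split nearly evenly, 49.6% higher and 50.4% lower in Mut4, so mixed signs are no particular trait of the ZNF genes. At ZNF143 the promoter peak was lower in Mut4, but the peaks 3298 and 6116 bp before the start were not: the nearer had 25 reads in Mut4 and 42 in ZHX2, a fold of 1.27 (0.744 to 2.14), and the farther had 18 in Mut4 and 25 in ZHX2, a fold of 1.54 (0.792 to 2.94). At ZNF343 the promoter peak had 18 reads in Mut4 and 43 in ZHX2, a fold of 0.896 (0.487 to 1.59), while an intron peak at chr20:2508352-2509139 had 34 reads in Mut4 and 28 in ZHX2, 2.60-fold higher in Mut4 (1.53 to 4.45). The authors' deposited table lists 0.0388 as the adjusted p of this intron peak of ZNF343. The same peak was 1 of 2 ZNF peaks, of 129, with more raw reads in Mut4, against 360 of all 8871 listed peaks.

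ZNF282, a repressor that binds a regulatory element of a human retrovirus, held the sole ZNF peak off chromosome 19 marked as unique to Mut4. That is 1 of 129 peaks, against 210 of 8871 listed peaks. This peak, chr7:149215792-149215963 in an intron 3569 bp from a start, had 19 reads in Mut4 and 6 in ZHX2. It was 6.78-fold higher in Mut4 (2.60 to 20.7), and the authors' deposited table lists 0.00267 as its adjusted p. All peaks so marked were higher in Mut4, so its direction came with the mark. The fold, interval and adjusted p are no separate evidence of it. The representative intron peak of the same gene had 23 reads in Mut4 and 57 in ZHX2, a fold of 0.864 (0.508 to 1.42). At ZNF638 a second peak at chr2:71416928-71417954 had 8 reads in Mut4 and 43 in ZHX2, 2.51-fold lower in Mut4 (1.17 to 6.18), against the fold of 1.12 at its representative peak. ZNF398 had a further promoter peak, chr7:149125925-149127888, with 80 reads in Mut4 and 105 in ZHX2, 1.63-fold higher in Mut4 (1.20 to 2.203), against 1.06 at its strongest peak. ZNF131, a BTB-domain protein, had an intron peak stronger than its promoter peak, with 93 reads in Mut4 and 245 in ZHX2, a fold of 0.813 (0.633 to 1.04), against 60 in Mut4 and 100 in ZHX2 at the promoter peak, a fold of 1.28 (0.917 to 1.79). At ZNF292, ZNF217 and ZNF839 the intervals of all peaks included 1.

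The promoter windows of the ZNF genes were searched for 8 short motifs, spelled here and matched on both strands: CCAAT for NFY, CCGGAAG for ETS factors, GGGCGG for the GC box, CACGTG for the E-box, TGACGTCA for the CRE, and the first 9 letters of a ZNF143 motif (ACTACAATT), of an NRF1 motif (GCGCATGCG) and of a YY1 motif (AAGATGGCG). Of 105 ZNF genes off chromosomes 8 and 19, 96 (91.4%) had a RefSeq window. Chromosome 8 is not used here. The window overlapped the representative peak at 80 of these 96 genes, and at 3040 of 4127 other coding genes. The ETS letters were found in 39 of 96 (40.6%), against 43.8% of ZNF genes on chromosome 19, 16.7% of the other coding genes with a listed peak and 10.3% of all 35116 windows. CCAAT was found in 42 of 96 (43.8%), against 47.9% of ZNF genes on chromosome 19, 34.1% of the other coding genes and 34.6% of all windows. The GC box was in 65.6%, against 72.2% of the other coding genes, and the E-box in 8.33%, against 10.7%. The 9 NRF1 letters were in 6 windows (6.25%), against 3.13% of the other coding genes. The 9 YY1 letters were in 4 (4.17%), against 5.52%. The full motifs planned first were in 3 windows for ZNF143, 3 for NRF1 and 1 for YY1. A match describes letters and is not evidence of a bound factor.

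The shared ETS letters can be set beside the reads. Of the 39 ZNF genes with CCGGAAG, 28 (71.8%) were higher in Mut4, with a median log2 ratio of 0.18. Of the 57 without it, 32 (56.1%) were, with a median of 0.05. The other coding genes had 56.7% higher in Mut4 with CCGGAAG and 44.1% without, so their split ran the same way. On chromosome 19 the shares were 71.9% with CCGGAAG and 68.3% without it, while the medians ran the other way, 0.18 with and 0.35 without. For CCAAT, 66.7% of the ZNF genes with the box and 59.3% of those without were higher in Mut4. On chromosome 19 the CCAAT split ran the other way, 65.7% with and 73.7% without, and the other coding genes had 46.2% both with and without the box. Some of these windows lie outside the peak whose reads are compared. Among windows that overlap it, 75% of 36 ZNF genes with CCGGAAG and 56.8% of 44 without were higher in Mut4. Those shares were 81.5% and 72.7% on chromosome 19, and 58.2% and 44.2% among the other coding genes. For CCAAT they were 69.4% and 61.4% off chromosome 19, 74.1% and 78.8% on it, and 47.4% and 46.7% among the other coding genes. The splits were made after the motif shares had been seen, and none was tested.

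**Figure D5:**
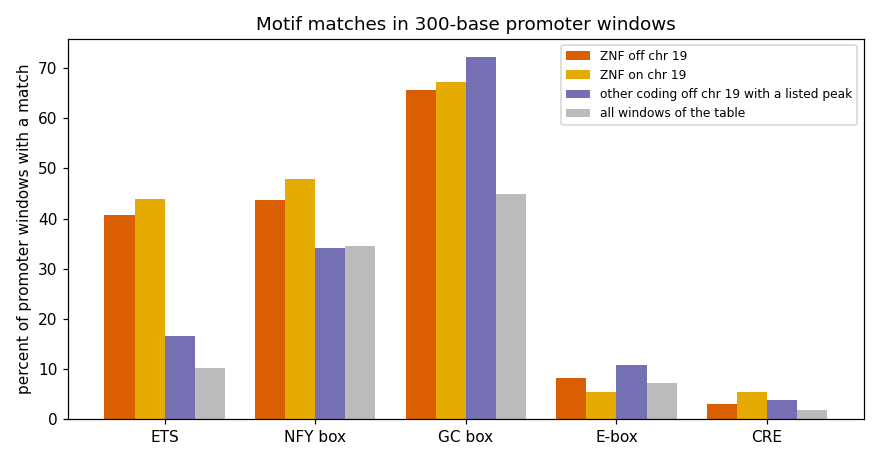
Percent of promoter windows of 300 bases that hold each motif, for ZNF genes off chromosome 19 (96 windows), ZNF genes on it, other coding genes off it with a listed peak and all windows of the table. The ETS motif is in 40.6% of the windows of ZNF genes off chromosome 19, against 16.7% of the other coding genes, and the GC box in 65.6% against 72.2%.

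In base composition the ZNF windows were close to the other coding genes, with a median GC content of 66.0%, against 67.0%, and an opposite-strand start lay within 1000 bp at 31 of 96 (32.3%), against 28.8%. The ZNF143 motif letters ACTACAATT stood in 3 windows (3.13%), those of ZNF140, ZNF286A and ZNF451, against 4.11% of ZNF genes on chromosome 19 and 0.460% of the other coding genes. Of these, ZNF140 was 1.82-fold higher in Mut4, ZNF286A was at a fold of 1.07 (0.505 to 2.16) and ZNF451 at 0.494 (0.166 to 1.23).

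The silencing machinery that KRAB proteins recruit was described from a list of 25 genes, of which 13 had a peak, 7 higher and 6 lower in Mut4, with a median log2 ratio of 0.10. CBX1, which encodes a heterochromatin protein that reads H3K9 methylation, had 31 reads in Mut4 and 28 in ZHX2, 2.37-fold higher in Mut4 (1.38 to 4.10). SETDB1, the H3K9 methyltransferase, had 50 reads in Mut4 and 70 in ZHX2, 1.53-fold higher (1.04 to 2.23). TASOR, of the HUSH complex, had 21 reads in Mut4 and 94 in ZHX2, 2.09-fold lower in Mut4 (1.29 to 3.53). ATRX, a chromatin remodeller, had 11 reads in Mut4 and 53 in ZHX2, 2.25-fold lower (1.16 to 4.78). Of the 13 genes, 2 thus had an interval above 1 and 2 below 1, against 11.0% of all listed peaks each way. Intervals of the other 9 included 1, and the authors' deposited table lists no gene of the list under an adjusted p of 0.05, which 3.43% of all peaks passed as higher and 2.53% as lower in Mut4.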

How the data were processed

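Binding was measured in 4 libraries of DB cells, a ChIP and an input library for Mut4 and for ZHX2, grouped by their titles. Tools in the submitters' processing notes, listed there without roles, are MACS2 2.2.6, BWA 0.7.17, deepTools 3.4.3, HOMER, Picard 2.22.2-0, Trim Galore 0.6.4, MultiQC 1.8 and FastQC 0.11.9, and the build is hg38. Per the file headers, the deposited table gives for each of 8871 peaks a log2 fold change (ZHX2 over Mut4), a log2 CPM and a p-value with its adjusted form, all made by the authors. Its tool: not given in the sources used here. Positions are printed as deposited.

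Whole reads were solved for from each peak's log2 fold and log2 CPM, as deposited. In 8871 of 8871 peaks whole numbers gave both values back within 1e-09, with library factors of 0.965 for Mut4 and 1.04 for ZHX2. Precision is lower in Mut4, where the limit that a count of 0 allows is 3 reads or 11.4 CPM, against 5.34 CPM in ZHX2. Input libraries and 0 further columns of per-sample values were not used here. Folds were recomputed as Mut4 over ZHX2 from these reads with exact intervals (Python 3.11.15, numpy 2.4.6, pandas 2.3.3, scipy 1.17.1; figures with matplotlib 3.10.9). The recovery was also run on data simulated with the same model of the 2 columns. That run checks the solving only and cannot show that the authors' tool used this model. With 1 library per arm there is no count test.

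Genes named are the 10 largest and 10 smallest folds at or above the median signal, the 6 strongest, members of role lists, common or Mut4 peaks and genes with peaks of both directions. The genes, lists and rules were chosen with earlier results of these data known. Promoter windows came from RefSeq (GRCh38.p14); matching was widened by unique synonyms, and chromosome 8 left out, after the first motif counts had been seen. Protein domains were not analysed here. Alternatives tried were other scalings, another choice of peak, promoter peaks alone, well-covered peaks alone, no chromosome 7 and other fold thresholds.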

Additional observations from a re-analysis of the deposited data

How the results depend on the processing

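Scaling decided the directions. Against 68 ZNF genes higher and 45 lower in Mut4 with a median log2 ratio of 0.10, unscaled reads gave 0 higher and 113 lower, 62 past 2-fold lower, 0 intervals above 1 and 87 below, and a median of -1.0. Of all 8871 listed peaks, 360 had more unscaled reads in Mut4, so these directions are not particular to the ZNF genes. The other counts under these scalings are not given here over all peaks. Scaled to 52 ZHX2-marked peaks that lie on unplaced contigs, the values for the ZNF genes were 1, 112, 42, 0, 70 and -0.85 in the order of the unscaled ones. Without the strongest of these peaks, an alternative chosen after seeing the data, they were 15, 98, 22, 0, 37 and -0.43. Of 47 named genes, 28, 26 and 15 changed sign under these scalings. Centring on the median of all peaks and leaving out chromosome 7 kept all 7 summaries within 1.5 times or within the spread.

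Other choices moved single counts, in part because they kept fewer genes. All 113 genes had 39.8% lower, 6.19% past 2-fold lower and 8.85% with an interval below 1. Promoter peaks alone, at 82 genes, gave 28 lower (34.1%), 3 past 2-fold lower (3.66%) and 5 intervals below 1 (6.10%). The 64 genes at or above the median signal gave 45 higher (70.3%) and 19 lower (29.7%). Of these 64, 2 were past 2-fold lower (3.1%) and 6 had an interval below 1 (9.4%). The strongest peak per gene added 1 gene past 2-fold higher, ZNF343, since its intron peak took the place of its promoter peak, and turned the sign of ZNF131. At 4-fold 0 genes were past the threshold lower in Mut4, and at 1.5-fold 13 were higher and 20 lower. The shares of all peaks at these thresholds are not given here, so these counts say nothing particular about the ZNF genes. No paired analysis was possible because each arm had 1 library. Depth limits single genes most where Mut4 had under 10 reads.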
